A study of Homo sapiens with 4 samples.

Results

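DUX4, its DUX4-like copies and the FRG genes make up the macrosatellite repeat family examined here for H3K9me3, the histone mark of silent heterochromatin, in Ishikawa endometrial cancer cells, an established human line. Peaks were taken from the 1 list of each condition where they lay in or within 5 kb of DUX4, FRG1, FRG2, FRG2B, FRG2C or a DUX4-like gene on an autosome, 51 genes in all. The NC cells had no treatment, per the labels, and the other cells carry the treatment label OE-KDM4A. KDM4A encodes a demethylase of methylated lysine 9 on histone H3. The sources used here give neither how KDM4A was introduced nor whether the cells are 1 clone. Each condition had 1 ChIP library and 1 input library, all labelled replicate 2. No other replicate is listed, so differences between the conditions have no replicate check and were not tested. The rule found 11 of the 1165 NC peaks and 8 of the 3785 OE-KDM4A peaks. The peaks were chosen by being called in a list and by their position, and the family was picked with their fold enrichment and −log10 q known, so the values below are a description.

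DUX4 encodes a double homeobox transcription factor of the early embryo. It lies in D4Z4, a tandem repeat at the end of the long arm of chromosome 4 that is kept silent in most adult tissues, and loss of that silencing causes facioscapulohumeral muscular dystrophy. The end of chromosome 10 carries an almost identical repeat, and further DUX4-like copies, nearly all classed as pseudogenes, are dispersed near centromeres and on short arms of acrocentric chromosomes. FRG1 encodes a nuclear protein linked to RNA processing, and FRG2, with its copies FRG2B and FRG2C, is a gene family placed beside D4Z4 and its relatives. A sequencing read from near-identical copies can be placed at any of them, so the source copy of the family's peaks is uncertain. The sequences of the peaks themselves were not compared here.

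RefSeq promoter sequences (GRCh38.p14, 250 bases before to 50 bases after the gene start) show how close the FRG2 copies are. They are printed 5′ to 3′ on the strand of the gene. Capitals in FRG2 and FRG2C mark the bases at which these copies differ, and FRG2B is in lower case throughout. Capitals in DUX4 mark CpG pairs, the sites of DNA methylation. The FRG2 window is chr4:190027207-190027506 (minus strand), that of FRG2B is chr10:133626746-133627045 (minus), that of FRG2C is chr3:75664078-75664377 (plus) and that of DUX4 is chr4:190173524-190173823 (plus).
FRG2: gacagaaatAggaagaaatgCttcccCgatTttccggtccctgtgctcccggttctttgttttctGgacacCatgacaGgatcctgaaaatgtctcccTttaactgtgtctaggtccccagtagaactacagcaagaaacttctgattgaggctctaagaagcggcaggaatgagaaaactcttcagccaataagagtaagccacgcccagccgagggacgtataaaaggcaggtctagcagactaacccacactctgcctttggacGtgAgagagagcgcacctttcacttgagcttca
FRG2B: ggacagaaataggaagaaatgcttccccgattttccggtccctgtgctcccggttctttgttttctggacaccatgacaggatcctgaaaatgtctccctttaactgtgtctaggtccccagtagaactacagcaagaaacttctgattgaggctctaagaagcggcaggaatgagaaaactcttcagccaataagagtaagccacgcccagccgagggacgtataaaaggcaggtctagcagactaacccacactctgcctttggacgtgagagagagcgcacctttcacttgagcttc
FRG2C: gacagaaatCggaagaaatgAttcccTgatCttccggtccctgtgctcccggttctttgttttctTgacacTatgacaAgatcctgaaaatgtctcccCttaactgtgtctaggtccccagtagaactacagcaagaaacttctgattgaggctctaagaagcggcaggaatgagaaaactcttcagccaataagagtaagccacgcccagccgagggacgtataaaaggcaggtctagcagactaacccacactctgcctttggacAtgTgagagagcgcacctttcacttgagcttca
DUX4: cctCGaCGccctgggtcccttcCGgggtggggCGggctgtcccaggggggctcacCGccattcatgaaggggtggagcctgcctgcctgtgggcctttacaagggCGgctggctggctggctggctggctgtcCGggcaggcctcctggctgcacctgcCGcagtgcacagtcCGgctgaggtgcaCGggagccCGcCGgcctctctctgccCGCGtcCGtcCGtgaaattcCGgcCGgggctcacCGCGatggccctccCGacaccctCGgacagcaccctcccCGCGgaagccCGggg

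FRG2 and FRG2B shared an unbroken run of 299 of 300 bases, their windows being offset by 1 base. FRG2 and FRG2C differed at 10 of 300 bases and shared a longest run of 168 bases. Of the 251 windows of 50 bases in the FRG2 promoter, 250 recurred in that of FRG2B and 119 in that of FRG2C, so a read of this length from the FRG2 start cannot be told from one of FRG2B. The letters TATAAA, searched on both strands, occurred in the promoters of FRG2, FRG2B and FRG2C and not in those of DUX4 and FRG1. They occurred in 11.5% of all 35116 promoters of the table. The DUX4 promoter had a GC content of 73.3% and 25 CpG pairs, that of FRG1 66.7% and 30, and that of FRG2 49.0% and 9. The medians of all promoters were 58.7% and 14.

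No H3K9me3 peak of either list lay on any of these 5 promoters. The nearest peak to the DUX4 promoter was at 4.31 kb in NC and at 4.30 kb in OE-KDM4A, and for FRG2C the distances were 4.76 and 4.77 kb. For FRG2 they were 150.6 kb in NC and 70.0 kb in OE-KDM4A, and for FRG2B 61.3 and 60.7 kb. For FRG1 they were 237 and 59.1 kb. A list of called peaks does not show that the mark was absent, and how reads were placed between copies as alike as FRG2 and FRG2B was not analysed here.

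At 4q35, H3K9me3 was called in 2 regions of DUX4 and at no other gene of the family. Both were present in both lists. The first lay at chr4:190178130-190178255 in NC, 126 bp wide, and at chr4:190178128-190178283 in OE-KDM4A, 156 bp wide (hg38). Its fold enrichment over the control was 2.78 in NC and 3.02 in OE-KDM4A, with a −log10 q of 21.1 and 16.2. The second lay at chr4:190179507-190179674 in NC, 168 bp wide, and at chr4:190179455-190179739 in OE-KDM4A, 285 bp wide. Its fold enrichment was 3.46 in NC and 8.28 in OE-KDM4A, with a −log10 q of 393 and 504. Ordered by −log10 q, this second region ranked 3 of 1165 in NC and 47 of 3785 in OE-KDM4A, and ordered by fold enrichment it ranked 945 and 556. The summits of the second region were at the same base in both lists, and those of the first were 5 bp apart.

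Both DUX4 regions lay well past the start of the gene. Their summits were 4.41 kb and 5.81 kb from the DUX4 start in NC, within a gene span of 12138 bp (chr4:190173774-190185911). The spacing of consecutive DUX4-like gene starts at the 4q35 and 10q26 ends gives the length of 1 repeat unit, with a median of 3299 bp over 17 spacings (3293 to 3310 bp). The DUX4 summits thus stood 1.34 and 1.76 unit lengths from the gene start, beyond the length of 1 unit. The table gives gene spans without exons, so whether they fall in an exon or an intron was not analysed here.

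Few peaks were called in the rest of the 4q35 end. Whether the assembly has gaps there, in which no peak can be called, was not analysed here, so lengths without a peak do not show where the mark was missing. None lay in the 24.4 kb from DUX4L8 to DUX4L2, which hold 8 DUX4-like genes, in FRG2 with its neighbour DUX4L9, or in FRG1. In the 81.5 kb between DUX4L2 and DUX4, where the table lists no DUX4-like gene, NC had no peak and OE-KDM4A had 1 at chr4:190097501-190097616. That peak lay 5.21 kb from DUX4L2, just outside the 5 kb limit, and was weak, with a fold enrichment of 3.91 and a −log10 q of 1.85. The nearest OE-KDM4A peak to FRG1, at chr4:189881332-189881485 within FRG1-DT, was equally weak, with a fold enrichment of 2.62 and a −log10 q of 1.85.

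At 10q26 the peaks lay beyond the last gene of a DUX4-like array and not within it. The 7 DUX4-like genes from DUX4L28 to DUX4L20, over 20.8 kb, held no peak in either list. Past the end of DUX4L20 there were 3 NC and 4 OE-KDM4A peaks within 5 kb, and 1 more of each list just beyond, 5.09 kb from the gene in NC and 5.08 kb in OE-KDM4A. All 4 NC regions of this cluster overlapped an OE-KDM4A peak, and their summits shifted by at most 9 bp between the lists. The second array, the 7 genes from DUX4L29 to DUX4L15, held no peak, and the nearest called peak to it was 50.2 kb away in both lists, a distance that holds no listed DUX4-like gene and may hold assembly gaps, which were not analysed here. FRG2B, on the other side of the first array, had no peak within 5 kb.

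The 10q26 regions differed in strength between the lists, and not in 1 direction. The region 3.17 kb past DUX4L20 (chr10:133688359-133688498 in NC, chr10:133688300-133688565 in OE-KDM4A) had a fold enrichment of 4.37 in NC and 20.1 in OE-KDM4A. Its −log10 q was 61.1 and 88.7. The region at 4.15 kb (chr10:133689346-133689488 in NC, chr10:133689326-133689477 in OE-KDM4A) went the other way, with a fold enrichment of 4.06 and 1.80 and a −log10 q of 185 and 22.0. It ranked 20 of 1165 by −log10 q in NC, the strongest of this cluster there, and 3783 of 3785 by fold enrichment in OE-KDM4A. The region at 4.74 kb (chr10:133689929-133690052 in NC, chr10:133689919-133690154 in OE-KDM4A) had a fold enrichment of 2.83 and 15.5 and a −log10 q of 22.4 and 60.3.

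A further 10q26 peak was called in OE-KDM4A alone, at chr10:133687751-133687956, 2.56 kb past DUX4L20, with a fold enrichment of 5.69 and a −log10 q of 55.6. Of the OE-KDM4A member peaks it was the strongest that NC did not share. The pair of regions just beyond the 5 kb limit (chr10:133690277-133690406 in NC, chr10:133690273-133690411 in OE-KDM4A) had a fold enrichment of 2.36 and 5.52 and a −log10 q of 6.18 and 9.59. Just inside it was the region at 4.74 kb described above.

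By −log10 q, the strongest NC regions of both chromosome ends stood at a like distance from the start of the last gene before them. It was 5.81 kb from DUX4 and 5.76 kb from DUX4L20, or 1.76 and 1.75 unit lengths. The likeness did not hold in OE-KDM4A, where the strongest 10q26 region by −log10 q (88.7) stood 4.77 kb from the DUX4L20 start, or 1.45 unit lengths, and the one at 5.76 kb was the weakest of those within 5 kb of the gene (22.0). The gene models are not the same length (12138 bp for DUX4, 1525 bp for DUX4L20), so their starts may not be matching bases of the repeat. The weaker regions did not keep this likeness, since the other summit of DUX4 was 1401 bp before the strongest and the other 10q26 summits were 992 bp before and 561 bp after it.

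**Figure D1:**
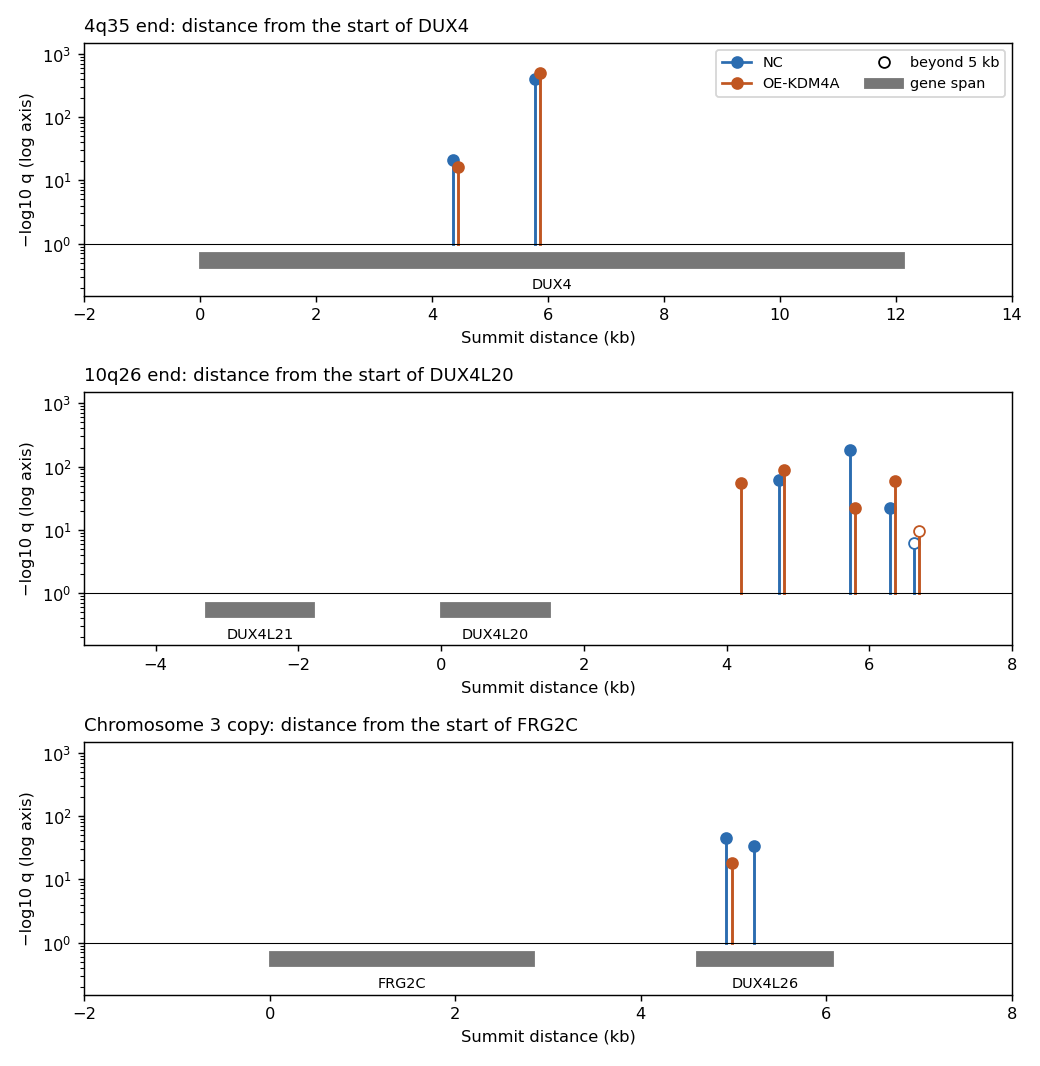
Each panel plots the −log10 q of called peaks (log axis) against the distance of the summit from the start of DUX4, DUX4L20 or FRG2C in kb, with NC drawn slightly to the left and OE-KDM4A slightly to the right of the true position and grey bars for gene spans. The DUX4 summits lie 4.41 and 5.81 kb from its start in NC, the 10q26 summits lie past the end of DUX4L20, and the chromosome 3 summits lie in DUX4L26 and not in FRG2C.

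Of the dispersed copies, the one on chromosome 3 was marked in both lists. FRG2C (chr3:75664328-75667173) had no peak in its span, and DUX4L26 beside it (chr3:75668931-75670394), a DUX4-like pseudogene, held 2 NC peaks and 1 OE-KDM4A peak, all of which also lie within 5 kb of FRG2C. The shared region was chr3:75669133-75669373 in NC and chr3:75669148-75669384 in OE-KDM4A. Its fold enrichment was 2.52 in NC and 2.16 in OE-KDM4A, with a −log10 q of 45.8 and 18.3. The second NC peak, chr3:75669511-75669631, had a fold enrichment of 2.98 and a −log10 q of 34.2 and overlapped no OE-KDM4A peak. The NC summits lay inside DUX4L26, at 23.6% and 44.1% of its span, or 345 and 646 bp from its start. The DUX4 summits also lay inside their gene, but in a span of 12138 bp and 4.41 and 5.81 kb from its start. By that distance the DUX4 summits were nearer to the 10q26 summits, 4.77 to 6.32 kb from the DUX4L20 start in NC, than to those of DUX4L26. FRG2, FRG2B and FRG2C each have RARRES2, AGGF1 and CLUH pseudogenes beside them in the table, in the same order outward. None of these 9 pseudogenes had a peak within 5 kb in either list. Of all autosomal pseudogenes, 0.56% had one in NC and 1.14% in OE-KDM4A, so this count does not set the 9 apart.

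The other dispersed copies had peaks of lower −log10 q and pileup than DUX4L26, though most had a higher fold enrichment, and none was shared between the lists. In NC, the chromosome 22 pseudogenes DUX4L42 (chr22:11601051-11601179), DUX4L43 (chr22:11605960-11606117) and DUX4L44 (chr22:12693736-12694007) each held 1 peak. Their fold enrichments were 3.92, 3.95 and 1.90, and their −log10 q values of 1.87, 1.57 and 1.43 were near the lowest of the list, 1.31. An NC peak of higher −log10 q lay on chromosome 9 at chr9:63818989-63819161, 488 bp from DUX4L50 and overlapping the noncoding gene LINC00537, with a fold enrichment of 6.25 and a −log10 q of 11.6. In OE-KDM4A, 1 peak lay on chromosome 20 at chr20:29881786-29881943, 2.42 kb from DUX4L37, with a fold enrichment of 3.62 and a −log10 q of 5.45. The dispersed genes on chromosomes 5, 12, 14 and 16 had no peak within 5 kb in either list.

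Counted by gene, 8 of the 51 genes had an NC peak within 5 kb, beside 1.33% of all 56756 autosomal RefSeq genes, and 5 had an OE-KDM4A peak, beside 3.03%. The family was chosen with these peaks known, so the contrast with all genes is no result. DUX4, DUX4L20, DUX4L26 and FRG2C had a peak in both lists, which 0.245% of all autosomal genes had. Of the 51 genes, 9 had a peak in at least 1 list, beside 4.11% of all genes, and 42 had none. Almost all of the family are pseudogenes, a class in which 0.56% of genes had an NC peak and 1.14% an OE-KDM4A peak. At the 4q35 end 1 of 12 genes had a peak, at the 10q26 end 1 of 15, and among the dispersed copies 6 of 24 in NC and 3 of 24 in OE-KDM4A.

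Presence in the other list is given by the place of the copy, with numbers too small to set the places apart. At the chromosome ends all 5 NC peaks overlapped an OE-KDM4A peak, and 5 of 6 OE-KDM4A peaks overlapped an NC peak. Among the dispersed copies it was 1 of 6 and 1 of 2, and 3 of the 5 NC peaks not shared there had the low −log10 q values of chromosome 22 given above. Over the family, 6 of 11 NC peaks (54.5%, exact 95% binomial interval 23.4 to 83.3%) were shared, beside 34.1% of all 1107 autosomal NC peaks, which lies inside that interval. Of the OE-KDM4A peaks, 6 of 8 (75.0%, 34.9 to 96.8%) were shared, beside 10.1% of 3560. These intervals cover counting error only. Reads shared between copies, which were not analysed here, would make the peaks dependent and the intervals narrower than the true uncertainty.

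Peak numbers of the family were close in the 2 lists, while the lists as a whole differed. The family had 11 peaks in NC and 8 in OE-KDM4A, a ratio of 0.727 (exact 95% interval of 2 counts 0.254 to 1.99), whereas all autosomal peaks numbered 1107 and 3560, a ratio of 3.22 (3.01 to 3.44). The direction within the family depends on the limit used, with 12 NC and 14 OE-KDM4A peaks within 20 kb (ratio 1.17). Keeping only peaks with −log10 q from 5 upwards left 8 of each, and keeping only fold enrichments from 5 upwards left 1 and 4. Widths were 121 to 272 bp in NC (median 143) and 152 to 285 bp in OE-KDM4A (median 221), beside list medians of 142 and 135 bp. By −log10 q the median was 22.4 in NC and 38.8 in OE-KDM4A, beside 3.78 and 3.58 over all autosomal peaks. By fold enrichment the medians were 3.46 and 4.66, beside 4.42 and 5.21. Fold enrichment in OE-KDM4A was spread widely, with 4 of the 8 peaks (5.69, 8.28, 15.5 and 20.1) above the autosomal median.

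Most peaks of the family had a high control background, as worked out from the deposited fold enrichment and −log10 p. MACS2, the peak caller in the submitters' processing notes, is known to report (pileup + 1) / (background + 1) as fold enrichment, and solving that for each summit together with −log10 p gave the number of stacked ChIP fragments (pileup) and the background of the control. The background of member peaks had a median of 51.1 in NC and 27.6 in OE-KDM4A, beside 1.28 and 0.924 over all autosomal peaks. It was above 10 at 8 of 11 member peaks in NC and 5 of 8 in OE-KDM4A, where 22.3% and 6.85% of all autosomal peaks reached it. The background is the peak caller's estimate from the control and not a count of control fragments stacked at the summit. A peak of high significance and modest fold enrichment returns a high background by this formula. The family was picked with fold enrichment and −log10 q known, so the contrast with all peaks is no separate result. How it was scaled between the libraries was not analysed here. Its part in the peaks called at these repeats was not tested.

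**Figure D2:**
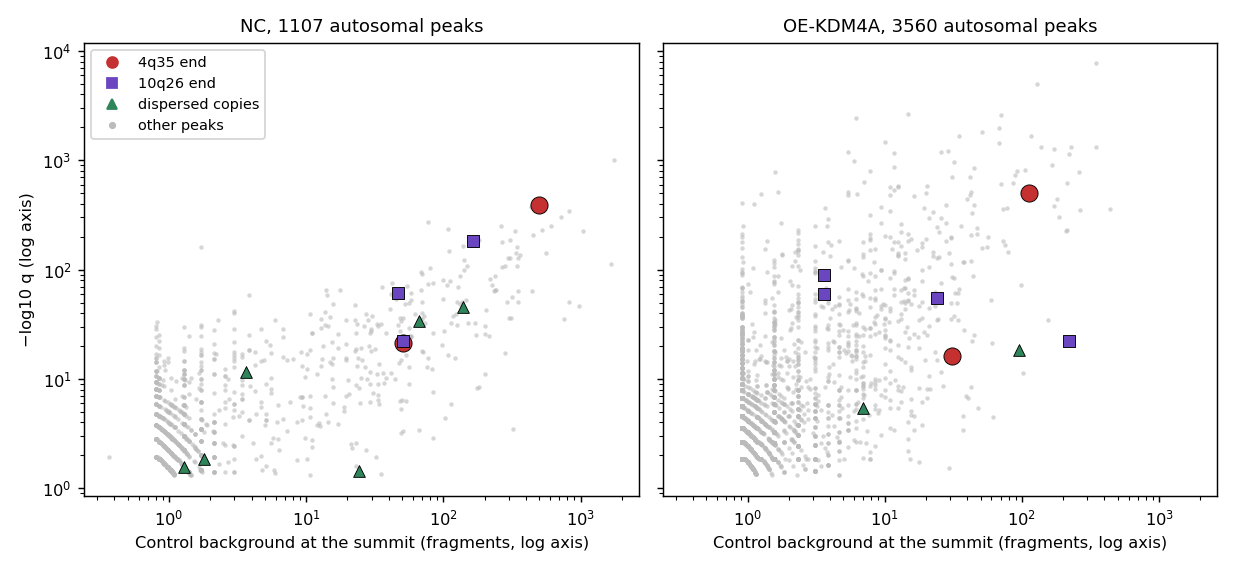
Each point is an autosomal peak in NC (left) or OE-KDM4A (right), with larger symbols for the 11 and 8 peaks of the family. The x axis is the estimated control background at the summit (fragments, log axis), and the y axis is −log10 q (log axis). At an NC background near 51 a 4q35 and a 10q26 symbol overlie each other. Most symbols sit to the right of the bulk of grey points, and the dispersed copies reach the lowest −log10 q.

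At every region of the family that both lists called, fewer ChIP fragments were stacked in OE-KDM4A than in NC. At the strongest DUX4 region the pileup was 1724 in NC and 941 in OE-KDM4A, and at the other DUX4 region it was 144 and 96. At the 10q26 regions it was 208 and 92, then 668 and 395, then 147 and 71, in order of distance from DUX4L20. At DUX4L26 it was 353 and 206. The ratio of OE-KDM4A to NC ran from 0.442 to 0.667 with a median of 0.565 over these 6 regions.

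Over all 377 autosomal regions that both lists called, the pileup was lower in OE-KDM4A at 46.4%, the median ratio was 1.03 (quartiles 0.750 and 1.33), and 19.1% had a ratio as low as 0.667. Among the 155 of them with an NC pileup of at least 100, as all 6 regions of the family have, the median was 1.08 and 40% were lower. The 6 regions come from 3 places that may share reads, which was not analysed here. The depth of each library is unknown, and no test was run. Dividing by the median ratio of all regions, 1.03, could not change the direction at these 6 regions, since their highest ratio was 0.667.

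**Figure D3:**
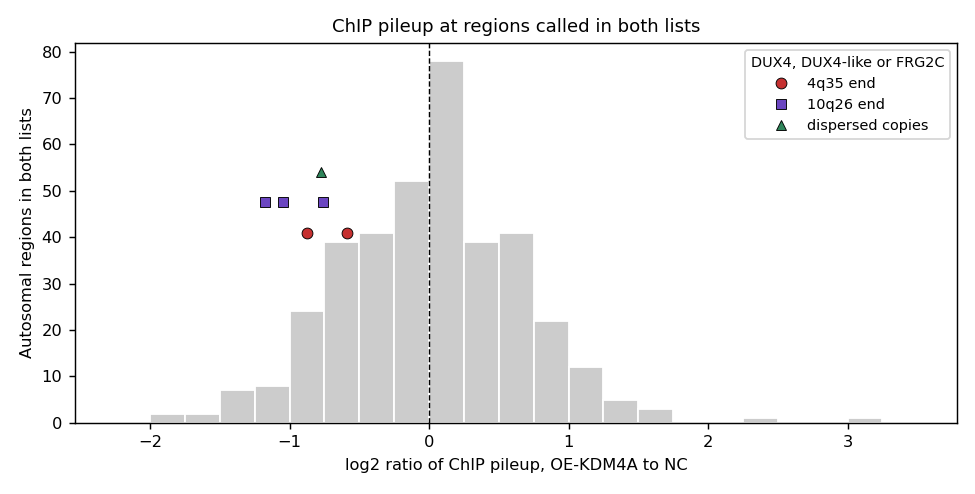
Grey bars count the 377 autosomal regions called in both lists by the log2 ratio of ChIP pileup of OE-KDM4A to NC (x axis), and the symbols mark the 6 regions of the family at heights chosen only to separate them. All 6 symbols lie left of 0, between −1.18 and −0.58, inside the range of the other regions.

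The control background fell further than the pileup at some of these regions, and there fold enrichment was higher in OE-KDM4A. OE-KDM4A had the lower background at 5 of the 6, beside 81.4% of all regions, and fold enrichment was higher at 4 of the 6, beside 79.3%. At the strongest DUX4 region the background was 497 in NC and 113 in OE-KDM4A. At the 10q26 regions with a fold enrichment of 20.1 and 15.5 in OE-KDM4A it was 46.8 and 51.2 in NC and 3.63 at both in OE-KDM4A. At the 10q26 region between them, the 1 of the 6 with more background in OE-KDM4A, it was 164 in NC and 219 in OE-KDM4A. At the first DUX4 region it was 51.1 and 31.1, and at DUX4L26 140 and 94.9. At the 4 regions with a higher fold enrichment in OE-KDM4A, both the pileup and the background were lower there than in NC. The depth of each library is unknown, and what lies behind these differences was not tested.

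**Figure D4:**
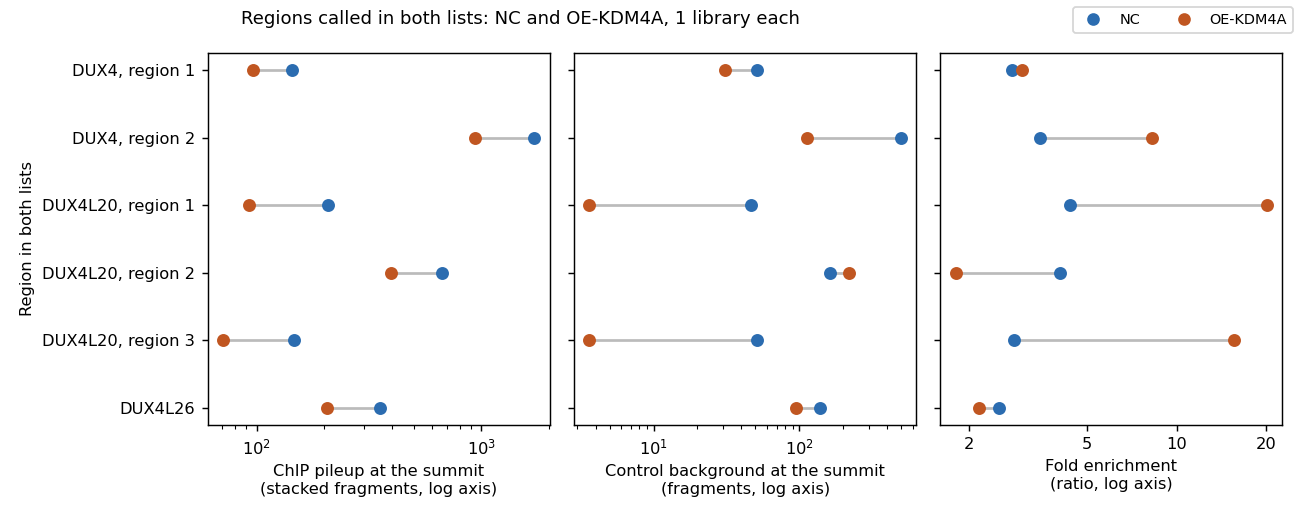
The 6 regions of the family called in both lists are plotted by ChIP pileup (left), control background (middle) and fold enrichment (right), all on log axes, with NC in blue and OE-KDM4A in orange from 1 library each. Pileup is lower in OE-KDM4A in every row, background in every row but the second DUX4L20 region, and fold enrichment is higher in 4 of 6 rows.

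Lists of genes linked to DUX4 by function are read against the 1.33% (NC) and 3.03% (OE-KDM4A) of all autosomal genes with a peak within 5 kb. At these shares few or no genes of a short list would have a peak, so the counts do not set these lists apart from other genes. None of 26 genes known as DUX4 targets, among them ZSCAN4, LEUTX and TRIM43, had a peak within 5 kb in either list, and none of 14 other double homeobox genes (DUXA, itself among the targets, DUXB and the DUXA pseudogenes) had one. Of 12 autosomal genes known to act in silencing D4Z4, YY1 alone had a peak. YY1 encodes a zinc finger factor that binds D4Z4, and its peak was shared, at chr14:100239295-100239443 in NC and 1 base longer in OE-KDM4A, near the start of the gene span. Its fold enrichment was 4.81 in NC and 7.83 in OE-KDM4A, with a −log10 q of 3.51 and 11.4. Its pileup was 12 and 20, and 191 of all 377 autosomal regions in both lists also had a higher pileup in OE-KDM4A. SMCHD1, DNMT3B, SETDB1 and TRIM28, which silence repeats, had no called peak.

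Neighbours and relatives of the repeats are given for their place, and most had no peak, as had most genes of the table, where 4.11% had one in either list. Of 14 genes listed as neighbours of the 4q35 repeat, SORBS2, a cytoskeletal adaptor gene, had 2 weak OE-KDM4A peaks. Their −log10 q was 2.66 and 1.85, and none of the 14 genes had an NC peak. SORBS2 (chr4:185585523-185956372) lies far from DUX4 (chr4:190173774-190185911) and is not next to the repeat. None of 13 genes listed as neighbours of the 10q26 repeat had a peak. Of 19 FRG1 and FRG2 pseudogenes, FRG2FP (−log10 q 3.62) and FRG1FP (2.23) had a peak in NC and FRG1JP (5.62) in OE-KDM4A. Among other tandem or subtelomeric families, 3 of 29 USP17L genes, copies of a deubiquitinase gene in a chromosome 4 macrosatellite, had an OE-KDM4A peak and none had an NC peak. The peak at USP17L22, which is also within 5 kb of USP17L21, had a −log10 q of 9.01, and that at USP17L24 had 7.85. TUBB8P8, within 5 kb of the FRG2FP peak, and WASHC3, a gene of the WASH complex and not of the subtelomeric WASH copies, had 1 each. The TAF11L, OR4F and DDX11L families had none in either list.

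By the pair of highest −log10 q values in the 2 lists, the protein-coding gene nearest to DUX4 was LOC124905450 on chromosome 18, of 90 other genes with a peak in both lists. Its values were 302 in NC and 353 in OE-KDM4A, beside 393 and 504 for DUX4, a distance of 0.193 on the log10 scale. The NC peaks of LOC124905450 lay within 5 kb of its span and not in it. The next were RANBP2, a nuclear pore gene, and SH3RF3, at a distance of 1.24 each with 27.5 and 184, which share 1 region because their spans overlap. GDPD5 and KLHL35 followed at 1.92 and also share 1 region, which in NC lies in the KLHL35 span and outside that of GDPD5. The likeness rests on 2 libraries and says nothing of shared control.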

How the data were processed

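H3K9me3 peak lists of 2 ChIP libraries of Ishikawa cells, NC and OE-KDM4A, were analysed. Input libraries entered only through the authors' peak calling. Per the submitters' processing notes, Trimmomatic, Bowtie 1.1.2, MACS2 2.1.0 and hg38 were used, and their settings and roles are not stated there. The deposited fold enrichment is a linear ratio at the summit, and the deposited −log10 p and −log10 q values are the authors' own. The depth of each library is unknown.

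Repeated intervals were merged, keeping the highest −log10 q, which left 1165 of 1234 NC and 3785 of 4187 OE-KDM4A lines. Gene spans came from RefSeq (GRCh38.p14, the same assembly as hg38), without strand or exons. Lists were compared by an overlap of at least 1 bp, and where several OE-KDM4A peaks overlapped an NC peak, the most significant was taken. Distances to a gene were measured from the nearer ends of peak and gene span. The recovered pileup, taken as a whole number, returned −log10 p to within 0.001 in 98.7% (NC) and 99.6% (OE-KDM4A) of peaks, and to within 0.00105 at every member.

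The 4q35 and 10q26 ends and dispersed copies were set by position. Named genes were the members and related genes with a peak and the 5 genes most like DUX4. Members, lists and related genes were chosen with earlier results of these data known. SUV39H1, not autosomal, was left out. Steps were tested on simulated data. Alternatives changed the distance, the peak limits, the overlap and the gene set. Software was scipy 1.17.1, pandas 2.3.3, numpy 2.4.6 and, for plots, matplotlib 3.10.9, under Python 3.11.15.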

Additional observations from a re-analysis of the deposited data

How the results depend on the processing

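Inside gene spans only, the family had 7 NC and 3 OE-KDM4A peaks, and within 1 kb 3 OE-KDM4A peaks, of which 100% were shared under both limits. Within 20 kb there were 12 NC and 14 OE-KDM4A peaks. At a fold enrichment of at least 5 there were 1 NC and 4 OE-KDM4A peaks, a ratio of 4, and 0% were shared in either direction. Without DUX4-like genes there were 4 NC and 3 OE-KDM4A peaks, with 100% of the latter shared. The peaks kept were those in DUX4 and those in DUX4L26, which stayed because they lie within 5 kb of FRG2C. The median −log10 q of dispersed NC copies was 1.87 inside gene spans and with every line counted, and 34.2 when only peaks with −log10 q from 5 upwards were kept. That of dispersed OE-KDM4A copies was 18.3 inside gene spans. The pileup was lower in OE-KDM4A at 3 of 3 shared regions without the 10q26 end and at 4 of 4 without the 4q35 end. These counts could not come out otherwise, since it was lower at all 6 shared regions. Within 20 kb it was lower at 7 of 7. These alternatives were chosen after seeing the data. The other alternatives moved no count by more than 1.5 times and no share or ratio outside its interval. No paired analysis was possible because each condition has 1 ChIP library. Unknown depth limits any comparison of pileups between the lists.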

Other observations

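On chromosome 20, 4 further OE-KDM4A peaks lay between 5 and 20 kb from a DUX4-like gene, and no NC peak did. The one nearest DUX4L33 was 7.87 kb away, with a fold enrichment of 4.16 and a −log10 q of 1.85. The others lay 8.50, 16.3 and 19.3 kb from DUX4L37, with −log10 q values of 2.27, 1.85 and 3.58. All 4 rested on a pileup of 7 to 9 fragments, whereas the peak 2.42 kb from DUX4L37 had a pileup of 28.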
